A study of Homo sapiens with 18 samples.

Results

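The genes described are 10 that decide whether a cell leaves G1 phase and begins to copy its DNA: the D cyclins CCND1, CCND2 and CCND3, the E cyclins CCNE1 and CCNE2, the CDK inhibitors CDKN1B, CDKN2A, CDKN2B and CDKN2C, and RB1. They were taken by symbol, matched to the Entrez numbers of the deposited table, and all 10 are among its 18475 genes. RNA-seq was performed on 3 lung cell lines, each with 3 control and 3 irradiated libraries, 18 libraries in all. BEAS-2B is a bronchial epithelial line, A549 a non-small cell lung cancer (adenocarcinoma) line, and H446 a small cell lung cancer line. All libraries carry the genotype label wild type, the irradiated cells received 10 Gy of X-rays, and RNA was taken 24 h later. No agent other than radiation is named, no separate time is given for the controls, and the labels do not say whether replicates were separate cultures, so the p-values measure the spread between libraries, which may be technical. The question set by the design is how normal lung epithelial cells and lung cancer cells differ in their response to radiation.

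As background, D cyclins bind the kinases CDK4 and CDK6, and E cyclins bind CDK2. These kinases phosphorylate the retinoblastoma protein, the product of RB1, which otherwise holds E2F factors inactive. Free E2F factors switch on the genes of DNA replication and the E cyclin genes themselves. The INK4 inhibitors, made from CDKN2A, CDKN2B, CDKN2C and CDKN2D (the last is no member), act on CDK4 and CDK6, while p27, made from CDKN1B, acts mainly on CDK2 complexes. After DNA damage, p53 induces a further inhibitor, p21, made from CDKN1A. Many of these proteins are controlled by phosphorylation and turnover, which RNA levels do not show. BEAS-2B cells were made immortal with a hybrid virus whose large T antigen binds the retinoblastoma protein and p53, and RB1 function is often lost in small cell lung cancer.

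The values are treated as FPKM, fragments per kilobase of transcript scaled to the reads of the library, which are corrected for gene length and so can be compared between genes. Their total lay between 461255 and 529936 per library, and a relative depth read from the steps of 306 low genes lay between 0.958 and 1.09. The library labelled BEAS-2B 10 Gy replicate 2 stood apart. Over 15 p53 target genes its median log2 difference from the control mean was 0.065, against 0.85 in replicate 1 and 1.06 in replicate 3, so the tests of BEAS-2B responses are given with and without it. The median of its p53 targets thus lay near the control level although its label gives 10 Gy. Single targets lay outside the controls on either side, such as CDKN1A (102.24 FPKM, controls at most 86.36) and RRM2B (15.30, controls at least 17.23). Whether it was irradiated as labelled was not tested, and every mean of irradiated BEAS-2B libraries holds it unless it is said to be left out. Since it was set apart by a measure of the response itself, a call that appears only without it is not independent of that choice. The labels were also set against cell type markers, which separated the lines only in part as their names would have it. The sum of 4 alveolar or adenocarcinoma markers was low but highest in A549 libraries, at 0.79 to 1.28 FPKM. It was 0.40 to 0.76 in BEAS-2B and 0.11 to 0.20 in H446 libraries. Of these 4 markers, 0 reached 1 FPKM in all A549 libraries. Of 5 measured neuroendocrine markers, 1 (ENO2) did so in all H446 libraries, but 2 did so in BEAS-2B (ENO2 and NCAM1) and 2 in A549 cells (SYP and ENO2), and their sum was 14.9 to 21.2 FPKM in H446 libraries against 107 to 132 in BEAS-2B and 24.7 to 42.4 in A549. Of 4 airway basal markers, 1 (KRT17) did so in all BEAS-2B libraries and 2 (KRT14 and KRT17) in all H446 libraries, with sums of 159 to 188 and 724 to 919 FPKM. PTPRC, a marker of immune cells, lay at or below 0.09 FPKM in every library.

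Promoter sequence is shown for CCNE1, because it was among the members that moved furthest after irradiation, and for E2F1, which among the E2F factor genes called in H446 cells fell the most. Each is the 250 bases before the RefSeq start site on GRCh38.p14, 5′ to 3′ on the strand of the gene. The CCNE1 window is chr19:29811741-29811990 on the plus strand, with its GC boxes (GGGCGG on either strand) in capitals. The E2F1 window is chr20:33686386-33686635 on the minus strand, with E2F motifs (TTTCCCGC, TTTGGCGC, TTTGCCGC or TTTCGCGC on either strand) in capitals.
CCNE1: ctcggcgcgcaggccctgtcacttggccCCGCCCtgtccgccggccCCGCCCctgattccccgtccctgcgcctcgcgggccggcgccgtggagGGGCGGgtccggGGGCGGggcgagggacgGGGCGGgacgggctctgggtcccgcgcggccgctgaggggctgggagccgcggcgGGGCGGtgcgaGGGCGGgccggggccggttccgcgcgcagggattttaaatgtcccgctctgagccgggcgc
E2F1: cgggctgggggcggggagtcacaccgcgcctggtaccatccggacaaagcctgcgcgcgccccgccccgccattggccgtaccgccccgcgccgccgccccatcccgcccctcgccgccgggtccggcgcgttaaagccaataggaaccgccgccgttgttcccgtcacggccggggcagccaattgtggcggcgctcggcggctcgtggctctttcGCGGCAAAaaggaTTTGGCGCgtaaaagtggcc
The CCNE1 window held 7 GC boxes and 0 copies of the E2F letters searched, and the E2F1 window held 2 E2F motifs, which start at positions 218 and 231 counted from the first base shown. Among 35116 windows of this length, belonging to 27305 genes, 2.79% held an E2F motif and 42.6% a GC box. None of the windows of CCND3, CDKN1B, CDKN2A, CDKN2B and CDKN2C in the table held one of these E2F motifs, which says only that these letters are not there. CCND1 and CCND2 are named only.

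Before irradiation, the D cyclins set the lines apart in the same order. CCND1, on chromosome 11 from 69641156 to 69654474, measured 85.63, 91.37 and 88.57 FPKM in the H446 controls, 66.69, 67.12 and 65.87 in the A549 controls, and 30.78, 34.80 and 27.40 in the BEAS-2B controls. No control of one line reached the range of the next. The mean was 88.5 ± 2.87 (SD, n = 3) in H446, 66.6 ± 0.64 in A549 and 31.0 ± 3.70 in BEAS-2B cells, so H446 cells held 2.86 times and A549 cells 2.15 times the BEAS-2B level. CCND3, on chromosome 6 from 41934933 to 42050035, stood at 69.67, 64.82 and 66.30 FPKM in H446, 39.44, 39.81 and 38.11 in A549, and 23.05, 27.70 and 23.69 in BEAS-2B controls, again without overlap. CCND2, on chromosome 12 from 4273762 to 4305353, was at or below 0.07 FPKM in each of the 18 libraries and was not tested. The D cyclin transcripts of all lines were therefore those of CCND1 and CCND3, with CCND1 making up 55.5% ± 1.77 of the summed D cyclin FPKM in BEAS-2B controls, 56.9% ± 1.69 in those of H446 and 63.0% ± 0.31 in those of A549.

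**Figure D1:**
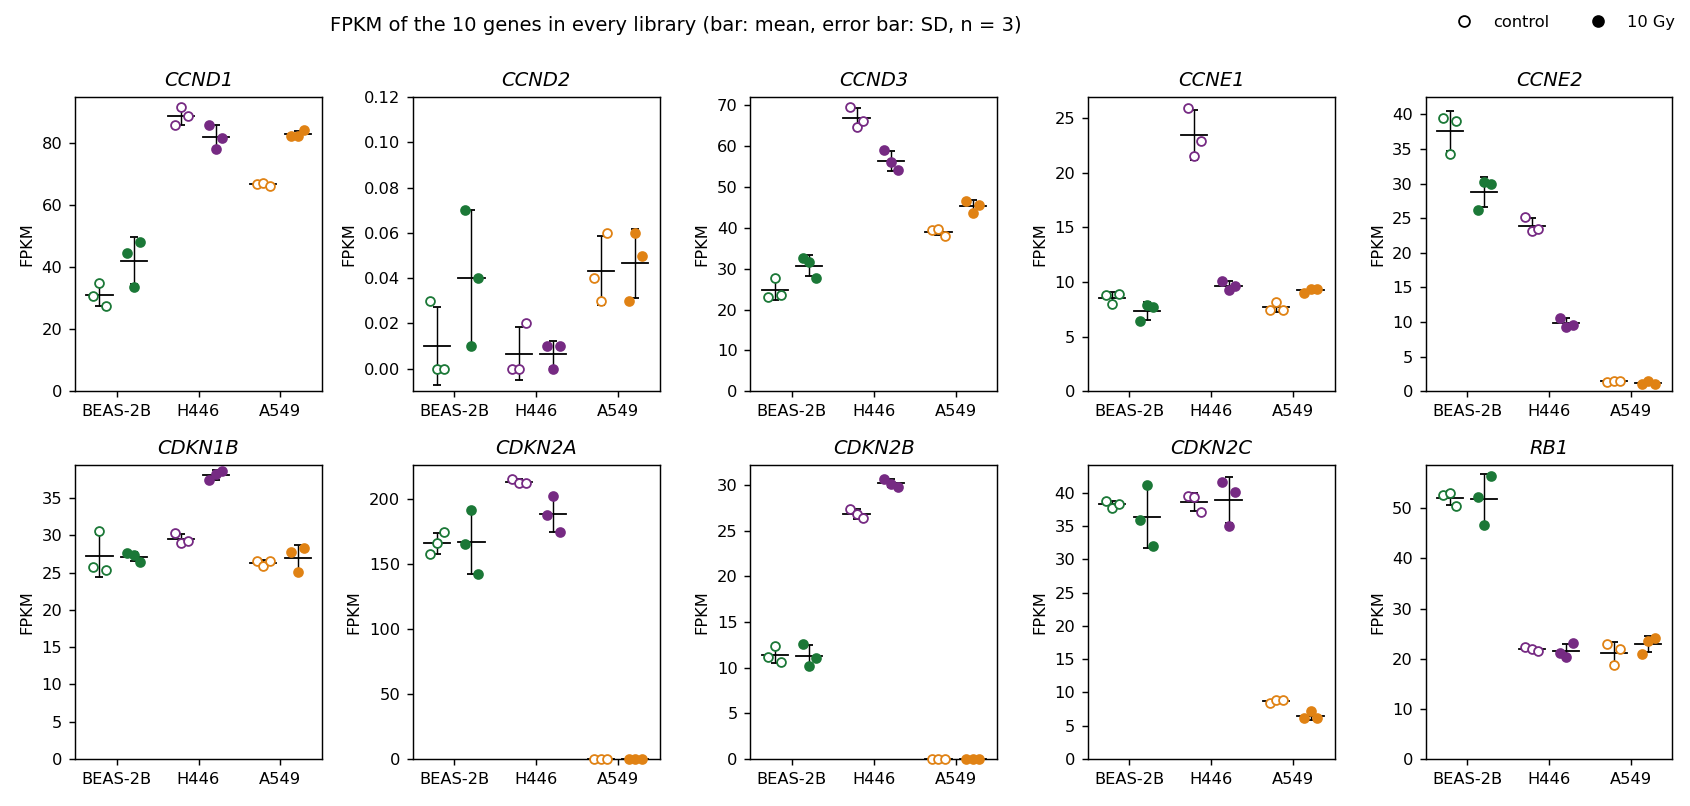
FPKM (vertical axes) of the 10 genes in every library of BEAS-2B, H446 and A549 cells, with open circles for controls, filled circles for 10 Gy, bars for the mean and error bars for the SD of 3 libraries. CDKN2A and CDKN2B lie at or near 0 in A549 cells, RB1 is highest in BEAS-2B cells, and CCNE1 and CCNE2 are lower after 10 Gy in H446 cells; the vertical axis of CCND2 ends at 0.12 FPKM.

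The E cyclins followed 2 further patterns. CCNE1, on chromosome 19 from 29811991 to 29824312, measured 25.95, 21.50 and 22.94 FPKM in the H446 controls, above 8.78, 8.02 and 8.93 in BEAS-2B and 7.45, 8.17 and 7.44 in A549. H446 cells stood clear of the other two lines, whose ranges overlapped. CCNE2, on chromosome 8 from 94880224 to 94896693, was lowest in A549 cells, at 1.36, 1.46 and 1.55 FPKM, against 25.19, 23.18 and 23.40 in H446 and 39.47, 34.27 and 39.10 in BEAS-2B controls. The BEAS-2B mean was 25.8 times and the H446 mean 16.4 times the A549 mean. CCNE2 made up 81.4% ± 0.38 of the summed E cyclin FPKM in BEAS-2B controls, 50.5% ± 1.31 in those of H446 and 15.9% ± 1.13 in those of A549, so the A549 E cyclin transcripts came mainly from CCNE1.

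Among the inhibitors, CDKN2A showed the widest range of levels. This gene, on chromosome 9 from 21967752 to 21995324, gives rise to p16INK4a and, in another reading frame, to p14ARF, which protects p53, and the deposited value does not separate them. It measured 215.82, 212.28 and 212.94 FPKM in the H446 controls and 157.91, 166.08 and 174.46 in the BEAS-2B controls, while all 3 A549 controls are listed at 0. CDKN2B, which encodes p15INK4b and lies beside it from 22002903 to 22009313, stood at 27.43, 26.80 and 26.35 FPKM in H446 and 11.21, 12.35 and 10.59 in BEAS-2B controls, and is likewise listed at 0 in the A549 controls. After irradiation one A549 library showed 0.09 FPKM of CDKN2A and another 0.02 FPKM of CDKN2B, and the other two were listed at 0 for each gene. No fold is given against A549 for these genes.

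CDKN2C, which encodes p18INK4c (chromosome 1 from 50960745 to 50974634), was the INK4 member still measured above 1 FPKM in A549 cells, where CDKN2D, which encodes p19INK4d, had 5.37 ± 0.46 FPKM in the controls. The CDKN2C controls measured 8.34, 8.90 and 8.80 FPKM there, 39.58, 39.36 and 37.11 in H446 and 38.79, 37.73 and 38.33 in BEAS-2B cells. The ranges of H446 and BEAS-2B overlapped, and their means were 4.46 and 4.41 times that of A549. CDKN1B, on chromosome 12 from 12717368 to 12722369, was the most even of the inhibitors: 30.34, 28.96 and 29.23 FPKM in H446, 25.81, 30.65 and 25.40 in BEAS-2B and 26.52, 25.90 and 26.50 in A549 controls. The values of both other lines lay within the BEAS-2B range.

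RB1, on chromosome 13 from 48303751 to 48481890, was highest in BEAS-2B cells, where the controls measured 52.59, 53.04 and 50.40 FPKM. The H446 controls stood at 22.37, 21.87 and 21.62 and the A549 controls at 22.84, 18.80 and 21.89, ranges that overlapped each other and not that of BEAS-2B. The BEAS-2B mean was 2.37 times that of H446 and 2.46 times that of A549 cells.

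The baseline tests were run with limma on log2(FPKM + 1) over the 9 controls, for 12854 genes with at least 1 FPKM in 3 or more of them, and genes with a Benjamini-Hochberg adjusted p under 0.05 were called. On this scale a difference understates the fold of low genes. Most genes differ between lines: 85.1% of all genes passed for A549 against BEAS-2B, 82.6% for H446 against BEAS-2B and 84.4% for H446 against A549. CDKN2A and CDKN2B entered through the lines in which they are high, so the members are counted over the 7 that passed the filter in every line. Of these, 5 differed between A549 and BEAS-2B (2 higher and 3 lower in A549, where 38.8% of all genes were higher and 46.3% lower). Between H446 and BEAS-2B 5 differed (3 higher and 2 lower in H446, where 36% of all genes were higher and 46.7% lower). Between H446 and A549 6 differed, all higher in H446, where 41.4% of all genes were higher and 43.1% lower. For A549 against BEAS-2B cells the log2 difference was 1.08 ± 0.07 (SE) for CCND1 (limma, adjusted p = 7.9e-09), -3.97 ± 0.06 for CCNE2 (adjusted p = 1.9e-14) and -1.26 ± 0.06 for RB1 (adjusted p = 7.4e-10). For H446 against BEAS-2B cells RB1 differed by -1.21 ± 0.06 (adjusted p = 1.3e-09) and CCNE1 by 1.35 ± 0.07 (adjusted p = 1.7e-09).

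Some neighbours in these orders did not pass. RB1 did not between H446 and A549 cells (log2 difference 0.054, 95% interval -0.08 to 0.19, limma adjusted p = 0.431), although it passed after a correction for GC content. CDKN2C gave 0.014 between H446 and BEAS-2B cells (interval -0.09 to 0.11), and CCNE1 gave -0.14 between A549 and BEAS-2B cells (interval -0.30 to 0.016). CDKN1B passed between H446 and A549 cells at a difference of 0.16 (limma adjusted p = 0.032), but not under quantile normalization nor without any 1 of the 6 controls involved. Against BEAS-2B cells, CDKN1B gave -0.046 in A549, a sign that turned under quantile normalization and equal FPKM totals (0.028 and 0.0061), and 0.11 in H446, and did not pass in either, though it passed in H446 under quantile normalization, equal totals and the GC correction.

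The genes that flank CDKN2A were read beside it, since both INK4 genes listed at 0 in A549 cells lie side by side. MTAP, a gene of the methionine salvage pathway from 21802636 to 21941115, measured 3.36, 3.15 and 3.67 FPKM in the A549 controls, 16.23, 15.28 and 14.93 in BEAS-2B and 30.40, 33.11 and 31.79 in H446. A549 cells were thus lowest for MTAP as well, by -1.91 ± 0.06 on the log2 scale against BEAS-2B (limma, adjusted p = 9.3e-12), but not at 0. On the far sides, IFNE, an interferon gene, and DMRTA1 were highest in A549 cells, with means of 4.39 ± 0.20 and 3.28 ± 0.30 FPKM. H446 cells held 3.59 ± 0.37 and 1.73 ± 0.31 FPKM of them and BEAS-2B cells 0.35 ± 0.05 and 1.28 ± 0.15, so for IFNE the wide gap was to BEAS-2B cells, and H446 cells lay close to A549 (log2 difference -0.23, limma adjusted p = 0.00772). The low values in A549 controls thus covered MTAP, CDKN2A and CDKN2B out of the 5 genes measured whose lower ends lie within 500 kb of that of CDKN2A. Copy number was not measured.

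**Figure D2:**
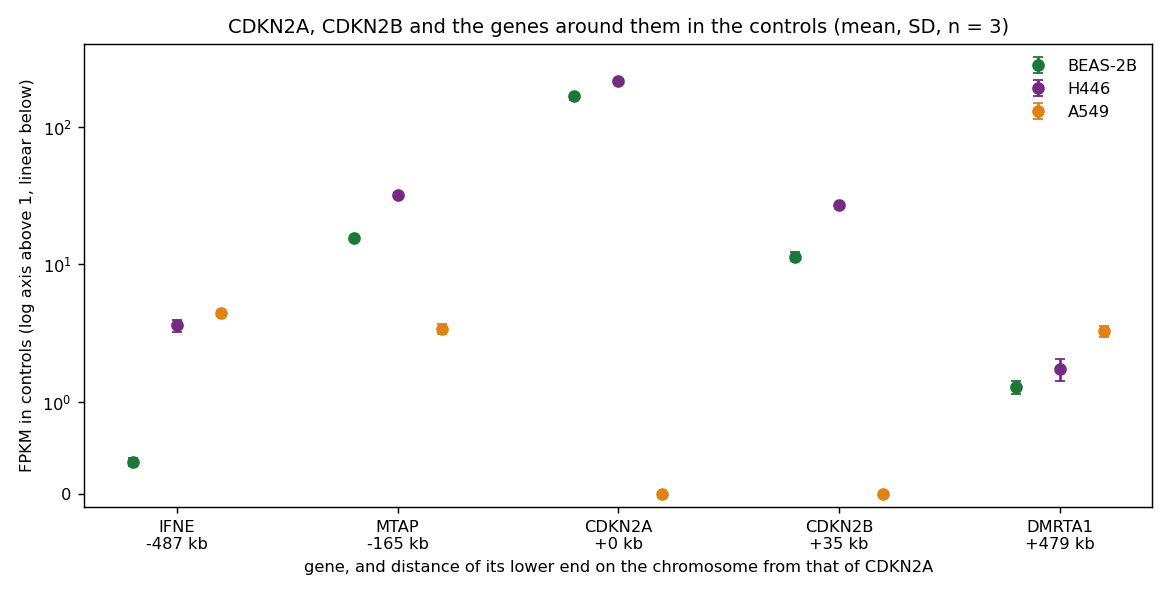
Mean FPKM and SD of 3 controls (vertical axis, logarithmic above 1 and linear below) for CDKN2A and the genes of the table within 500 kb of it, ordered along the chromosome on the horizontal axis by the distance between lower ends. A549 cells (orange) lie at 0 for CDKN2A and CDKN2B, lowest for MTAP, and highest for IFNE and DMRTA1 on the outer sides.

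ITM2B and MED4, which are among the genes whose lower ends lie within 500 kb of that of RB1, were, like it, highest in BEAS-2B controls: ITM2B had 169 ± 12.7 FPKM there, 117 ± 7.79 in H446 and 122 ± 4.61 in A549 cells. Their differences against BEAS-2B were smaller than that of RB1, at -0.53 in H446 and -0.47 in A549 cells for ITM2B and -0.50 and -0.89 for MED4, all past the threshold. Other genes there had other orders. SUCLA2 was highest in H446 controls, at 29.2 ± 0.26 FPKM against 26.7 ± 1.98 in BEAS-2B and 17.8 ± 0.38 in A549. LPAR6 lies within RB1, was highest in A549 controls (1.36 ± 0.26 FPKM, against 0.74 ± 0.14 in BEAS-2B and 0.11 ± 0.09 in H446) and was at or below 1.94 FPKM in every library; reads of overlapping genes cannot be told apart without strand, which is not given in the sources used here.

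In H446 cells both E cyclins fell after 10 Gy, by the widest margin of any member in any line. CCNE1 measured 10.07, 9.24 and 9.62 FPKM in the irradiated libraries, against 21.50 or more in every control, and its mean was 0.411 times that of the controls (23.5 ± 2.27 before, 9.64 ± 0.42 after). CCNE2 came to 10.61, 9.32 and 9.57 FPKM, against 23.18 or more in the controls, and its mean was also 0.411 times as high. The log2 differences were -1.20 ± 0.07 (SE) for CCNE1 (limma, adjusted p = 6.6e-07) and -1.20 ± 0.06 for CCNE2 (adjusted p = 2.5e-07). In RNA from whole cultures, fewer cells with a transcript and less of it per cell cannot be told apart.

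The other members of H446 cells moved less. CDKN1B rose from 29.5 ± 0.73 to 37.37, 38.28 and 38.64 FPKM, a log2 difference of 0.36 ± 0.04 (limma, adjusted p = 7.5e-05). CCND3 fell to 59.15, 56.05 and 54.29 FPKM, by -0.24 ± 0.04 (limma, adjusted p = 0.00182), and CDKN2B rose to 30.70, 30.09 and 29.83, by 0.16 ± 0.04 (adjusted p = 0.0068). The CDKN2B call did not hold with all 18 libraries in 1 fit (limma adjusted p = 0.0766). For CDKN1B, CCND3 and CDKN2B the irradiated libraries lay clear of the controls. CDKN2A fell to 188.22, 202.89 and 175.16 FPKM, by -0.18 ± 0.05 (limma, adjusted p = 0.0148). That call did not hold after the correction for GC content, which left -0.011 (limma adjusted p = 0.887). The longest transcript of CDKN2A has 61.4% GC. Across genes, the deviation from the line mean had a Spearman correlation with GC content of 0.347 to 0.459 in the H446 controls. In the irradiated H446 libraries it was -0.496 to -0.106. The CDKN2A call did not hold without H446 control replicate 1 (limma adjusted p = 0.0519) or with all 18 libraries in 1 fit (adjusted p = 0.0918) either.

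CCND1 in irradiated H446 cells measured 85.60, 77.83 and 81.60 FPKM, each below the lowest control, but at -0.12 ± 0.04 it did not pass (limma, adjusted p = 0.0541; it passed without H446 10 Gy replicate 1). CDKN2C stayed at 41.64, 35.02 and 40.13 FPKM (0.0058, 95% interval -0.13 to 0.14) and RB1 at 21.07, 20.37 and 23.12 (-0.029, interval -0.14 to 0.08). Thus 6 of 9 members tested passed, 2 higher and 4 lower, where 38.4% of all 11479 genes passed. The groups did not overlap for 7 of the 9, where this held for 50.3% of all genes. Over all genes, 1698 of 4407 calls were higher, but 2171 of 4359 under quantile normalization and 1798 of 3512 after the GC correction. The median log2 difference was -0.12 over the 9 members and -0.033 over all genes.

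**Figure D3:**
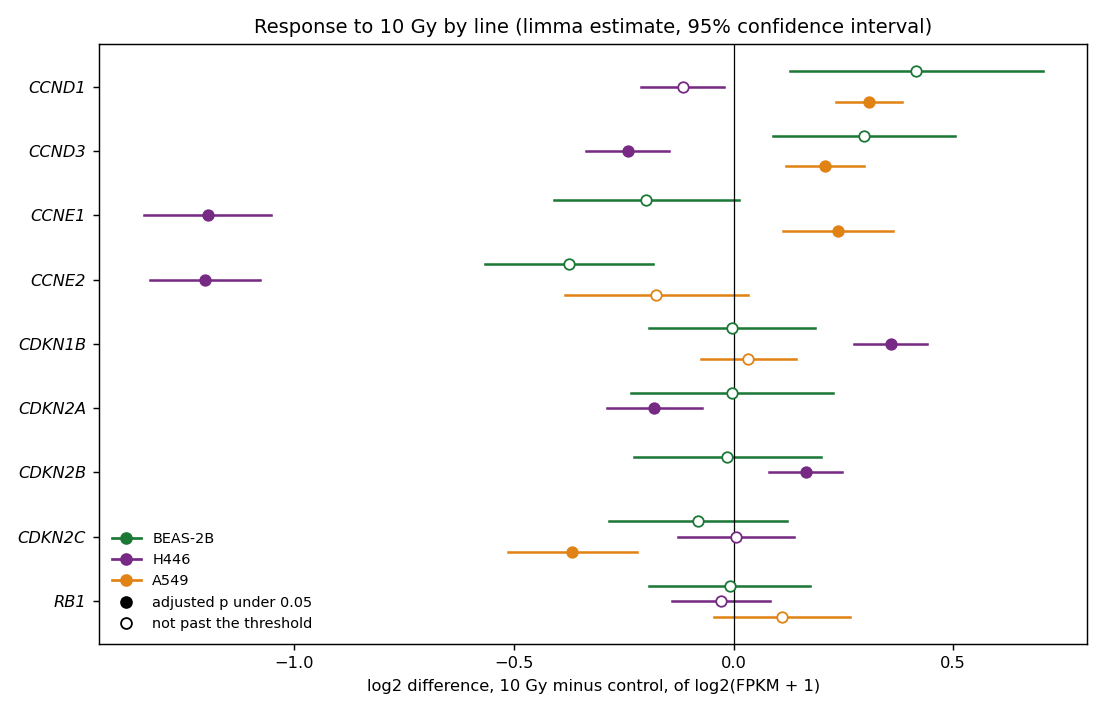
Log2 difference of 10 Gy minus control on the scale of log2(FPKM + 1) (horizontal axis) for the 9 members with a test, by line, as the limma estimate with its 95% confidence interval; filled points pass an adjusted p of 0.05. CCNE1 and CCNE2 of H446 cells lie near -1.20, D cyclins lie above 0 in BEAS-2B and A549 cells, and RB1 lies near 0 in every line.

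In A549 cells the D cyclins and CCNE1 rose and CDKN2C fell. CCND1 measured 82.23, 81.96 and 83.89 FPKM after 10 Gy, 1.24 times the control mean, and CCND3 46.69, 43.60 and 45.73, 1.16 times. CCNE1 came to 8.97, 9.40 and 9.34 FPKM, 1.20 times. CDKN2C fell to 6.11, 7.23 and 6.21 FPKM, 0.751 times the control mean. For all 4 the irradiated libraries lay outside the range of the controls.

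The log2 differences in A549 cells were 0.31 ± 0.03 for CCND1 (limma, adjusted p = 1.6e-05), 0.21 ± 0.04 for CCND3 (adjusted p = 0.00114), 0.24 ± 0.06 for CCNE1 (adjusted p = 0.0042) and -0.37 ± 0.07 for CDKN2C (adjusted p = 7.0e-04). CCNE2, already low, was 1.06, 1.47 and 1.02 FPKM, within or below the range of the controls (-0.18, 95% interval -0.38 to 0.034). CDKN1B measured 27.71, 25.02 and 28.24 FPKM (0.034, interval -0.07 to 0.14) and RB1 21.02, 23.60 and 24.10 (0.11, interval -0.044 to 0.26). Of 7 members tested, 3 rose and 1 fell, where 51.7% of all 11993 genes passed, and the groups did not overlap for 4 of 7, where this held for 58.5% of all genes. Both shares are near the background. The median was 0.11 over the 7 members and -0.0040 over all genes.

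In BEAS-2B cells no member passed the test. Nor did any of the 11734 genes tested (0% called), although 1446 genes, and 3 of the 9 members, had an unadjusted p under 0.05 with limma. CCND1 measured 44.46, 33.48 and 47.89 FPKM after 10 Gy. Replicates 1 and 3 lay above all controls, while replicate 2, the library that stood apart, lay within them. The log2 difference was 0.42 ± 0.13 (limma, adjusted p = 0.277), and without replicate 2 it was 0.57 ± 0.10 (adjusted p = 0.0187), when 1.97% of all genes passed and CCND1 was the 1 member that did.

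CCND3 came to 32.55, 31.75 and 27.75 FPKM in irradiated BEAS-2B cells, all above the highest control of 27.70 (0.30 ± 0.09, limma adjusted p = 0.277; 0.27 without replicate 2, adjusted p = 0.305). CCNE2 came to 26.25, 30.20 and 29.94 FPKM, all below the lowest control of 34.27 (-0.37 ± 0.09, limma adjusted p = 0.241; -0.41 without replicate 2, adjusted p = 0.0609). CCNE1 was 6.44, 7.91 and 7.75 FPKM, also below all controls (-0.20 ± 0.09, limma adjusted p = 0.421; -0.25 without replicate 2, adjusted p = 0.354). These 3 were the members of 9 whose groups did not overlap, where this held for 16.4% of all genes; without replicate 2 there were 5, with CCND1 and CDKN2C added, where this held for 27% of all genes. CCND1, CCND3 and CCNE2 passed with a replicate block, or with all 18 libraries in 1 fit.

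The inhibitors and RB1 lay near their control levels in BEAS-2B cells. CDKN2A measured 165.88, 191.71 and 142.73 FPKM after 10 Gy, around the controls on both sides, and CDKN2B 12.59, 10.17 and 11.08. CDKN2C stood at 35.90, 41.16 and 31.94, CDKN1B at 27.63, 27.34 and 26.43, and RB1 at 52.31, 46.65 and 56.53. The log2 differences of these 5 genes lay between -0.081 and -0.0031, and each 95% interval took in 0, with bounds between -0.28 and 0.23. Without replicate 2 the differences lay between -0.17 for CDKN2C and 0.063 for RB1, and 0 of the 5 passed. The irradiated values of CDKN2A, CDKN2C and RB1 were more spread than the controls. Replicate 2 was highest for CDKN2A and CDKN2C and lowest for RB1. Across genes, the deviation from the line mean had a Spearman correlation with GC content of 0.449, 0.705 and -0.312 in irradiated replicates 1, 2 and 3. CDKN2A and CDKN2C, at 61.4% and 58.1% GC in the longest transcript, followed this order, and RB1, at 37.3%, its reverse. Whether GC content accounts for this spread was not tested. Over the 9 members the median was -0.0089, against 0.0019 over all genes.

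Whether the lines differed in their response was tested in 1 fit of all 18 libraries over 13071 genes. Between A549 and H446 cells 6 of the 7 members past the filter in every line differed, where 34.6% of all genes did. The response of A549 exceeded that of H446 by 1.44 ± 0.11 for CCNE1 (limma, adjusted p = 3.4e-08), by 1.03 ± 0.12 for CCNE2 (adjusted p = 3.8e-06), by 0.45 ± 0.09 for CCND3 (adjusted p = 0.00126) and by 0.42 ± 0.13 for CCND1 (adjusted p = 0.0201, but 0.0508 with a replicate block, which ends that call). It fell short by -0.32 ± 0.09 for CDKN1B (adjusted p = 0.00687) and by -0.37 ± 0.11 for CDKN2C (adjusted p = 0.0153). For CCNE1, CCND1 and CCND3 the irradiated libraries lay above all controls in A549 cells and below all controls in H446 cells.

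Between BEAS-2B and H446 cells 5 of these 7 members differed, where 22.7% of all genes did. The differences were 0.999 ± 0.11 for CCNE1 (limma, adjusted p = 1.9e-05), 0.83 ± 0.12 for CCNE2 (adjusted p = 2.5e-04), 0.54 ± 0.09 for CCND3 (adjusted p = 0.00105), 0.53 ± 0.13 for CCND1 (adjusted p = 0.00991) and -0.36 ± 0.09 for CDKN1B (adjusted p = 0.00696). All 5 also passed without BEAS-2B 10 Gy replicate 2, at 0.95, 0.79, 0.51, 0.68 and -0.37, where 18.5% of all genes passed. These comparisons share the H446 libraries with the preceding one.

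Between BEAS-2B and A549 cells 1 member differed, CCNE1, at -0.44 ± 0.11 (limma, adjusted p = 0.00507), where 30.6% of all genes did. It was -0.48 without BEAS-2B 10 Gy replicate 2 (adjusted p = 0.0029), when CCND1 passed too (0.26, adjusted p = 0.0477) and 30% of all genes did. For CCNE2 the response was -0.37 in BEAS-2B and -0.18 in A549 cells and the difference did not pass (-0.20, interval -0.44 to 0.044; -0.23 without replicate 2, interval -0.49 to 0.022). A549 cells hold little CCNE2, and the scale of log2(FPKM + 1) understates the fold of low genes. The CCNE2 ratio of means, 10 Gy to control, was 0.766 in BEAS-2B, 0.812 in A549 and 0.411 in H446 cells. RB1 passed for none of the 3 pairs, with intervals that reached from -0.34 to 0.36.

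The kinases that the cyclins and inhibitors act on were read next. CDK4 fell in H446 cells from 63.71, 65.71 and 66.72 to 43.38, 42.15 and 41.82 FPKM (-0.61 ± 0.04, limma adjusted p = 1.0e-06) and in A549 cells from 64.01, 67.33 and 63.97 to 48.98, 49.45 and 44.96 (-0.44 ± 0.04, adjusted p = 8.2e-06). In BEAS-2B cells it measured 80.72, 97.16 and 82.05 FPKM, against controls of 85.15 to 100.01, and did not pass (-0.082, limma adjusted p = 0.717; -0.17 without replicate 2, adjusted p = 0.518). CDK6 fell in A549 cells, by -0.42 ± 0.07 (limma, adjusted p = 2.1e-04), and CDK2, the partner of the E cyclins, passed in no line after irradiation (0.033 in A549, 0.073 in H446 and -0.024 in BEAS-2B cells, or -0.035 there without replicate 2). CCNA2, the S phase cyclin that shares CDK2, rose in H446 cells from 62.5 ± 0.46 to 109 ± 1.51 FPKM (0.79 ± 0.03, limma adjusted p = 8.2e-08), the opposite direction to the E cyclins. Over 9 kinases and activators, 5 rose and 2 fell in H446 cells, where 14.8% of all genes rose and 23.6% fell. In A549 cells 0 rose and 4 fell of 8 tested, where 25.3% of all genes rose and 26.4% fell, and in BEAS-2B cells 0 of 9 passed, also without replicate 2.

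Set against their targets, the 3 INK4 members differed widely in amount between lines. The FPKM of CDKN2A, CDKN2B and CDKN2C together was 2.23 ± 0.14 times that of CDK4 and CDK6 together in BEAS-2B controls, 3.92 ± 0.12 times in H446 and 0.113 ± 0.0029 times in A549 controls. CDKN2A was the largest part of this sum in BEAS-2B and H446 controls (166 ± 8.28 and 214 ± 1.88 FPKM). Its value does not separate p16INK4a from p14ARF, so the sum is not one of INK4 transcripts alone. With CDKN2D added to the sum, the ratio was 2.43 ± 0.17, 4.01 ± 0.11 and 0.183 ± 0.0054. After 10 Gy the ratio of the 3 members was 5.28, 5.55 and 5.08 in the H446 libraries, above all H446 controls. The kinase sum was lower (71.2 ± 1.26 before, 48.6 ± 0.62 after), and the INK4 sum was 279 ± 3.29 before and 258 ± 11.7 after. As given above, the CDKN2A call in H446 cells did not hold after the GC correction. The irradiated BEAS-2B libraries gave 2.33 ± 0.20 (2.30 as the mean of 2 without replicate 2) and those of A549 cells 0.117 ± 0.0096, both overlapping their controls. The summed E cyclin FPKM went from 47.4 ± 3.35 to 19.5 ± 1.09 in H446 cells, from 46.2 ± 3.38 to 36.2 ± 3.02 in BEAS-2B cells (35.2 without replicate 2) and from 9.14 ± 0.43 to 10.4 ± 0.42 in A549 cells. The share of CCNE2 in it stayed at 50.5% ± 0.75 in H446 cells, since both genes fell alike.

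CDKN1A, the p53-induced inhibitor, rose in A549 cells from 100.68, 106.25 and 102.82 to 317.90, 293.77 and 297.43 FPKM (1.54 ± 0.04, limma adjusted p = 8.3e-11). In BEAS-2B cells it measured 309.73, 102.24 and 487.79 FPKM, against controls of 79.93 to 86.36, and did not pass (1.56, limma adjusted p = 0.25). The difference was 2.20 without replicate 2, given as a description only, since CDKN1A is among the 15 genes that set that library apart. In H446 cells it was 72.44, 63.57 and 65.85 FPKM, against 71.66 to 75.72 (-0.13, limma adjusted p = 0.0642). Of the other 3 inhibitors listed, CDKN2D fell in A549 cells (-0.40), and CDKN3 (0.61) and CDKN1C (0.22) rose in H446 cells. Of 15 p53 target genes, 14 rose in A549 cells, where 25.3% of all genes rose, and 2 rose and 2 fell in H446 cells, where 14.8% rose and 23.6% fell. In BEAS-2B cells 0 passed, with a median of 0.71 (0.95 without replicate 2, which was set apart by these same genes).

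Of the RB1 relatives and E2F factors, 6 of 12 passed in both cancer lines. No share of all genes was computed for passing in both lines or for moving the same way, so these joint counts have no background. E2F1, whose start region is printed above, fell in H446 cells from 37.92, 34.83 and 35.29 to 17.85, 17.34 and 15.47 FPKM (-1.05 ± 0.06, limma adjusted p = 5.8e-07). It fell in A549 cells from 7.59, 8.93 and 9.27 to 5.76, 4.92 and 4.89 (-0.63 ± 0.08, adjusted p = 4.9e-05), while BEAS-2B cells gave 40.92, 54.95 and 37.31 against 42.90 to 48.39 and did not pass (-0.042, limma adjusted p = 0.905; -0.20 without replicate 2, adjusted p = 0.378). RBL1, which encodes p107, fell in H446 (-0.23) and A549 cells (-0.24), and RBL2, which encodes p130, rose in both (0.18 and 0.27). Of 12 genes for pocket proteins, E2F and DP factors, 2 rose and 6 fell in H446 cells, where 38.4% of all genes passed, and 3 rose and 6 fell in A549 cells, where 51.7% did. Of the 6 that passed in both, 5 moved the same way, and E2F5, named after its values were seen, rose in H446 (0.27) and fell in A549 cells (-0.34). In BEAS-2B cells 0 passed, and without replicate 2 only E2F7, a repressor E2F, did so (0.63).

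The E cyclins were also set beside 20 E2F target genes, which serve DNA replication and S phase. In H446 cells 17 fell and 1 rose, where 23.6% of all genes fell and 14.8% rose, with a median of -0.51 against -0.033 over all genes. MCM5, MCM4, MCM3 and PCNA fell furthest, by -1.33, -0.90, -0.87 and -0.86, and at -1.20 CCNE1 and CCNE2 lay between the first and the second of these. The 1 that rose was TOP2A (0.71), a gene used in mitosis as well. In A549 cells 14 fell and 4 rose, where 26.4% of all genes fell and 25.3% rose, with a median of -0.28 against -0.0040 over all genes. MCM6 (-0.77), MCM5 (-0.72) and MYBL2 (-0.71) fell there, and PCNA, also known as a p53 target, rose by 1.38, while CCNE1 rose. In BEAS-2B cells 0 of 20 passed, with a median of -0.090 (-0.19 without replicate 2). By library, the median difference from the control mean was -0.14, 0.062 and -0.20 for the irradiated BEAS-2B replicates, -0.53, -0.53 and -0.48 for H446, and -0.34, -0.20 and -0.31 for A549.

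**Figure D4:**
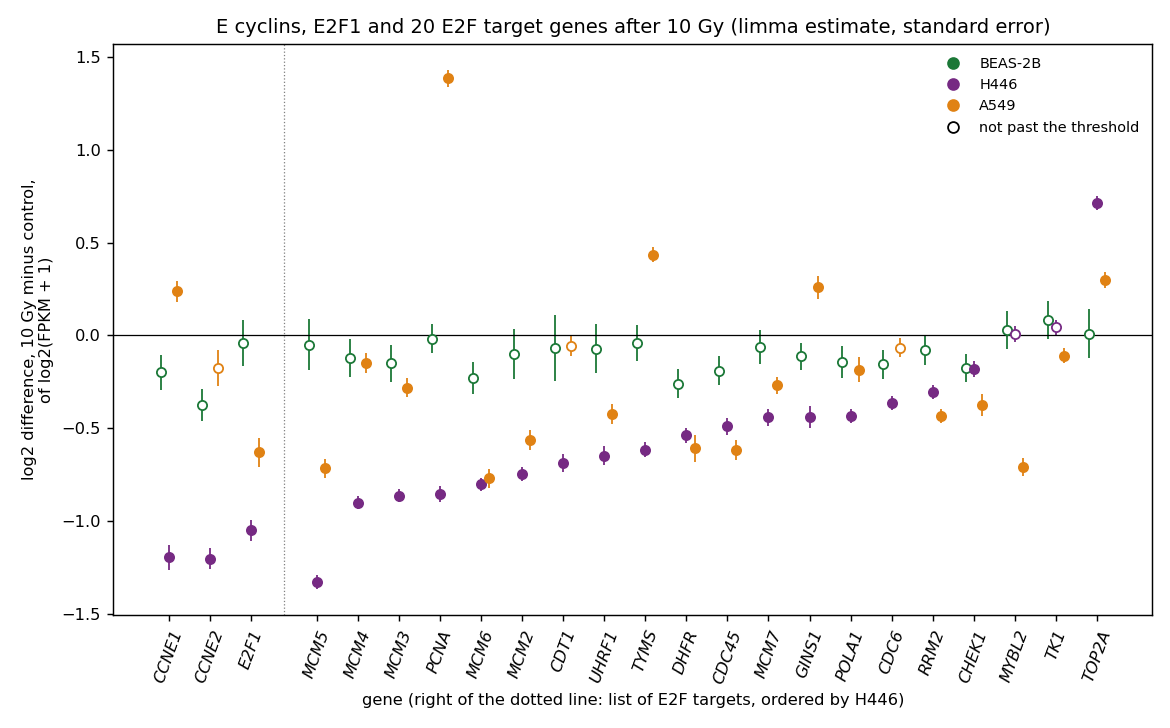
Log2 difference of 10 Gy minus control on the scale of log2(FPKM + 1) (vertical axis, estimate with standard error from limma) for CCNE1, CCNE2, E2F1 and the 20 E2F target genes, ordered by their value in H446 cells; open points did not pass. CCNE1, CCNE2 and E2F1 lie at -1.20, -1.20 and -1.05 in H446 cells, beside MCM5 at -1.33, whereas in A549 cells PCNA (1.38) and CCNE1 (0.24) lie above 0.

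Transcripts of the ubiquitin ligases that break down G1 cyclins and p27 were mixed. SKP2, which marks p27 for destruction, fell in H446 cells by -0.51, where CDKN1B rose, and rose in A549 cells by 0.37; its cofactor CKS1B did the reverse, at 0.48 and -0.32. FBXW7, which targets cyclin E, rose in A549 cells by 0.57. It rose and passed in H446 cells too, from 5.57 ± 0.33 to 6.45 ± 0.24 FPKM. Of the 12 genes, 4 rose and 2 fell in H446 cells, where 38.4% of all genes passed, 6 rose and 2 fell in A549 cells, where 51.7% passed, and 0 passed in BEAS-2B cells with or without replicate 2.

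The genes most like each member were sought by Pearson correlation of log2(FPKM + 1) over the 18 libraries, among 13092 genes, for the 7 members with an SD of at least 0.5. The points share their line in groups of 6, so the r values carry the differences between lines. CCNE2 was most like FAM111B (0.997), FEN1 (0.996) and MCM4 (0.995), and RB1 most like ATP8B1 (0.994), APOBEC3G and GBGT1. CDKN2A was most like MT1E (0.998), CDKN2B most like KRT17 (0.999) and CDKN2C most like PRDX2 (0.995). CCND1 was most like TOB1 (0.979), and CCNE1, with VSIG10 at 0.924, had the lowest best match of the 7.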

How the data were processed

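The authors selected poly(A) RNA of 3 lines and sequenced it on a BGISEQ-500 (single-end, 50 bases). The submitters' processing notes name HISAT2 2.0.4, Bowtie2 2.2.5, RSEM 1.2.12 and hg38. The authors deposited 1 table with 1 column per library, whose values are taken to be FPKM, scaled by length and by reads per library; the header names no unit, so it was inferred from the values. They are no counts, so no counting interval is given. Of 18475 genes, 18181 matched RefSeq.

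Values were transformed to log2(FPKM + 1) and tested with limma 3.58.1 (R 4.3.3; lmFit, eBayes with trend), with Benjamini-Hochberg adjustment over all genes with at least 1 FPKM in 3 or more libraries. Responses used the 6 libraries of a line, baselines the 9 controls, and response differences all 18 libraries with 6 group means over genes past the filter in at least 1 line. Scripts were tested on simulated data. The alternatives were quantile normalization, equal FPKM totals, a pseudocount of 0.1, no filter, no trend, a GC correction (loess, span 0.5, longest GENCODE 29 transcript, 17850 genes), an adjusted p under 0.01, a replicate block, each library left out, and 1 fit of all 18 libraries; a fit of only the 12 libraries of 2 lines was added after the data were seen.

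The members and lists were chosen with earlier results of these data known. All members are named, with 8 partner genes, up to 4 genes per list with the largest change among those called, the genes within 500 kb of CDKN2A or RB1 (of those around RB1, some are not reported here), and the 3 genes most like each member. Gene coordinates and promoter windows are from RefSeq on GRCh38.p14; sequence around CCNE2 is not reported here. Figures were drawn with matplotlib 3.10.9 in Python 3.11.15 (numpy 2.4.6, pandas 2.3.3).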

Additional observations from a re-analysis of the deposited data

Results flagged for a closer look

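In 12 cases the response of a member to 10 Gy differed between 2 lines by the test of the difference itself (limma, 1 fit of all 18 libraries, adjusted p under 0.05). Between A549 and H446 cells these were CCNE1 (1.44), CCNE2 (1.03), CCND3 (0.45), CCND1 (0.42), CDKN1B (-0.32) and CDKN2C (-0.37), as A549 response minus H446 response on the log2 scale; CCND1 did not pass there with a replicate block (adjusted p = 0.0508). Between BEAS-2B and H446 cells they were CCNE1 (0.999), CCNE2 (0.83), CCND3 (0.54), CCND1 (0.53) and CDKN1B (-0.36), and between BEAS-2B and A549 cells CCNE1 (-0.44). All of these involving BEAS-2B cells also passed with BEAS-2B 10 Gy replicate 2 left out.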

How the results depend on the processing

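Depth per library is unknown beyond its relative size, since the values are no counts. The trend of deviations from the line mean with GC content separated the H446 controls from the irradiated H446 libraries. Its correction ended 1 member call there, that of CDKN2A. In BEAS-2B cells this correlation was 0.705 in 10 Gy replicate 2 and -0.629 to 0.0133 in the controls. Of the values past the threshold, 40 are counted here, without 4 baseline values of CDKN2A and CDKN2B against A549 controls listed at 0, which had to differ. Combined with the alternatives, the 40 kept their call 351 times and lost it 9 times, and with a library left out they kept it 431 times and lost it 7 times.

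Samples of the same replicate number were not treated as pairs in the main fits. The correlation across genes of same-numbered deviations was -0.125, 0.324 and 0.311 in BEAS-2B, 0.19, 0.010 and 0.082 in H446, and 0.010, -0.055 and -0.099 in A549 cells. Replicates 2 and 3 of BEAS-2B cells thus shared part of their deviations between control and 10 Gy. With the replicate block, 3 members (CCND1, CCND3, CCNE2) passed in BEAS-2B cells in place of 0, and 439 genes in place of 0; with all 18 libraries in 1 fit it was 3 members and 822 genes, and with no filter 0 members and 1 gene. With 1 library left out, 0 to 1 members passed there. In A549 cells, 5 members passed in place of 4 under quantile normalization, where 6161 genes passed in place of 6202, and 4 to 5 members passed with a library left out. Between BEAS-2B and A549 cells, 2 members passed in place of 1 with a pseudocount of 0.1 (CCNE1 and CDKN2C), and 1 to 2 with a library left out, with 2 without BEAS-2B 10 Gy replicate 2 or 3, A549 10 Gy replicate 2 or H446 10 Gy replicate 2. Under an adjusted p of 0.01, 2529 genes passed in place of 4407 in H446 cells, 2308 in place of 3999 for BEAS-2B minus A549, 1208 in place of 2971 for BEAS-2B minus H446 and 2824 in place of 4526 for A549 minus H446; for BEAS-2B minus H446 it was 1356 with the GC correction and 1855 with only the 12 libraries of the 2 lines. There, 1796 of 2971 calls were higher, against 1238 of 2780 under quantile normalization and 626 of 1356 with the GC correction.

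Calls that were lost, beside those in the report, were, at 0.01, CDKN2A in H446 cells, CCND1 and CDKN2C for A549 minus H446, and CDKN1B between the H446 and A549 controls.

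Values that turned in sign were all small and past no threshold. After 10 Gy in BEAS-2B cells, equal FPKM totals gave CDKN1B 0.012, CDKN2A 0.012 and RB1 0.0064, and the GC correction gave CDKN2B 0.013 and RB1 0.10. With a library left out, CDKN1B was -0.050 to 0.080, CDKN2A -0.11 to 0.10, CDKN2B -0.090 to 0.052, CDKN2C -0.17 to 0.0059 and RB1 -0.072 to 0.063 there, and in H446 cells CDKN2C was -0.043 to 0.078 and RB1 -0.080 to 0.0076. At baseline, CDKN1B in A549 against BEAS-2B was 0.028 under quantile normalization, 0.0061 with equal totals, and -0.093 to 0.038 with a library left out, CDKN2C in H446 against BEAS-2B was -0.0023 to 0.043, and RB1 in H446 against A549 was -0.025 to 0.11. For BEAS-2B minus A549, CDKN2B was 0.0020 with the GC correction, and with a library left out CDKN2B was -0.099 to 0.042, CDKN2A -0.15 to 0.061 and CDKN1B -0.089 to 0.047. For BEAS-2B minus H446, RB1 was -0.026 under quantile normalization and CDKN2A -0.090 with the GC correction, and with a library left out RB1 was -0.043 to 0.093 and CDKN2C -0.18 to 0.00014.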
